A study of Mus musculus with 6 samples.

Results

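The matrix metalloproteases (Mmp), the ADAMTS proteases (Adamts) and the tissue inhibitors of metalloproteases (Timp) were examined in the embryonic mouse jaw. Members were all genes whose symbols carry these stems with a number in the array's annotation, and 42 of the 19057 genes measured qualified, 21 Mmp, 17 Adamts and 4 Timp genes. Mmp15, Mmp27, Adamts2 and Adamts5, which the same symbols would take in, were not analysed here. RNA of CD-1 mice, an outbred stock, was measured at embryonic day 13.5 on 6 Illumina bead arrays of 1 colour. 3 libraries were titled lower molar tooth germ and 3 were titled oral tissue. No treatment or mutation is named for either group. Each library pooled tissue of several embryos, and the libraries of the same number came from the same embryos of 1 litter, so the arrays form 3 pairs.

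Both protease families are zinc enzymes that are secreted or held at the cell surface and cut extracellular matrix. Mmp enzymes are made as inactive precursors and cut collagens, basement membrane and other proteases, while many Adamts enzymes cut proteoglycans such as versican and aggrecan or trim procollagens. The Timp proteins bind the active site of Mmp enzymes, and Timp3 also inhibits several Adamts enzymes. At the bud stage the dental epithelium grows into condensing mesenchyme, which requires turnover of the matrix and basement membrane between them.

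The labels conflict: by title and description the tooth germ is one set of 3 libraries, and by source name and tissue field it is the other set. Libraries are named here by title, and the sign of every difference turns if the other fields are right. Of 9 tooth germ genes measured, 7 were higher in titled tooth germ and 0 were lower, among them Msx1 at 12.67, 12.66 and 12.36 against 10.78, 11.41 and 11.09. All 9 skeletal muscle genes were lower there. Values are signals on the deposited log2 scale, and differences are titled tooth germ minus titled oral tissue. Calls required an adjusted p below 0.05 (limma, Benjamini-Hochberg over all 19057 genes). Of all genes, 2.39% were called higher and 3.42% lower. The median of all values, 7.01, and their upper quartile, 7.84, serve as marks for dim and bright probes, since no detection p was used. In whole tissue, fewer cells of a type and less RNA per cell cannot be told apart.

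Mmp9 and Adamts18 were higher in titled tooth germ, and Timp3, Adamts15, Adamts7 and Adamts16 were lower. These 6 of 42 members are 14.3%, beside 5.81% of all genes, and the 2 that rose and 4 that fell stand beside 2.39% and 3.42% of all genes called higher and lower. A fit that blocked on litter called 11 members, which is 26.2% beside 8.88% of all genes. Of these, 4 were higher and 7 lower, beside 3.86% and 5.02% of all genes. The 5 that the block added were Mmp13 and Mmp28, both higher, and Mmp17, Adamts1 and Adamts9, all lower. With litter as a random block at its estimated correlation, 7 members were called, 2 higher and 5 lower, and Mmp17 was the 1 added. Mmp13 (limma, adjusted p = 0.0609), Adamts1 (0.061), Mmp28 (0.0776) and Adamts9 (0.352) were not called there. The median difference was -0.0193 over the members and 0.00258 over all genes, and the median size was 0.0603 against 0.0465. By sign alone, 13 of 17 Adamts genes and 9 of 21 Mmp genes had a negative difference, beside 9191 of all 19057 genes.

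**Figure D1:**
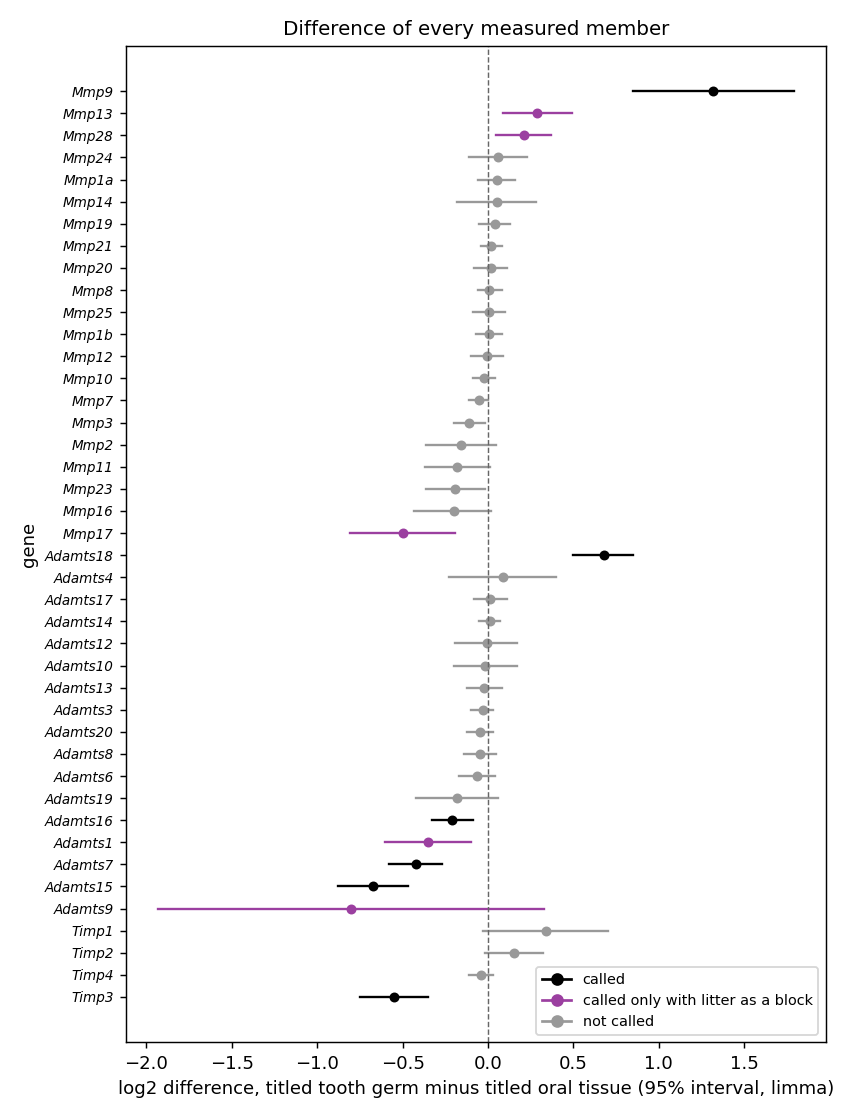
Log2 difference of each of the 42 members, titled tooth germ minus titled oral tissue, with the 95% interval of the fit without litter. Black marks calls, purple calls made only with litter as a block, and grey the rest. Mmp9 lies farthest to the right at 1.32, Adamts9 has the widest interval, from -1.93 to 0.33, and most members lie close to 0.

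The collagenases, stromelysins and matrilysin are described first, because most of them are neighbours in the genome. By the RefSeq genes of assembly GRCm38.p6, 10 Mmp genes follow each other on chromosome 9 with no other protein-coding gene between them, in the order Mmp13, Mmp12, Mmp1b, Mmp3, Mmp1a, Mmp10, Mmp8, Mmp27, Mmp20 and Mmp7. The bases just before their start sites are shown because most of these genes share a motif there. RefSeq promoter windows were found for 29 of the 42 members. Mmp9, Mmp2, Mmp17, Adamts7, Adamts15 and Adamts16 were among those without a window, so nothing is known here of motifs before their starts. The motif TGANTCA reads the same on both strands, and with G or C in the middle it is the site of the AP-1 factors Fos and Jun. It was searched, with any middle base, in the 250 bases before each start site. It was present for 8 of the 9 cluster members with a window and for 0 of the 20 members outside the cluster with a window, where a gene with several windows counts if any holds it. Mmp8 was the cluster member whose window lacked the motif. Per window the motif was in 8 of the 32 windows of members, beside 6.75% of 32817 windows of all genes. Mmp12 and Mmp7 had a pair of windows each, with the motif in 1 of them. Its first base lay between 35 and 95 bases before the start, and in Mmp20 its middle base was A. The Runx motif AACCACA, or TGTGGTT on the other strand, was in 4.39% of all windows. Among the 32 windows of members it was in 2, that of Mmp13 and the Mmp7 window that is not printed. Below are the 120 bases before the start of 5 of the cluster genes (RefSeq, GRCm38.p6), with both motifs in capitals.
Mmp13, chr9:7272394-7272513, plus strand: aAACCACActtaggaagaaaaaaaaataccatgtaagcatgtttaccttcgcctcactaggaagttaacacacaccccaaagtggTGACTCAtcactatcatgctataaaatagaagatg
Mmp3, chr9:7445702-7445821, plus strand: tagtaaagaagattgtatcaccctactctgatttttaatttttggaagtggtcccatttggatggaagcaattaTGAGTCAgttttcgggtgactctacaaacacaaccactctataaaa
Mmp1a, chr9:7464021-7464140, plus strand: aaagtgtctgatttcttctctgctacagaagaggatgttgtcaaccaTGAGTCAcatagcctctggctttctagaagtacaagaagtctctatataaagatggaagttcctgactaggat
Mmp10, chr9:7502222-7502341, plus strand: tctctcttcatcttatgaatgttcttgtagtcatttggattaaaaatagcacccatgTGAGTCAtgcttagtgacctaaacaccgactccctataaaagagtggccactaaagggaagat
Mmp7, chr9:7691970-7692089, plus strand: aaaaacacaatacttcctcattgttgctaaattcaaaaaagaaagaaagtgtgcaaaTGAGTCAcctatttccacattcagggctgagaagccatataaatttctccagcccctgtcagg

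Mmp13, the collagenase of bone and hypertrophic cartilage, read 7.12, 7.17 and 7.17 in titled oral tissue, against 7.60, 7.18 and 7.54 in titled tooth germ. Tooth germ libraries 1 and 3 stood above all others, and tooth germ library 2 was level with oral tissue. The difference of 0.29 (SE 0.09, adjusted p = 0.0982, limma) was called with litter as a block (adjusted p = 0.0353), without tooth germ library 2 (0.42, adjusted p = 0.00193) and without both libraries of litter 2 (0.43, adjusted p = 0.0053). It was not called with litter as a random block (adjusted p = 0.0609, limma) or in any other alternative. It was 0.0869 with the mean of all its probes and 0.19 without litter 1. The other Mmp13 probes differed by 0.0192 and -0.0479 and were not called. The 8 other measured genes of the cluster read between 6.74 and 7.37 in every library, with differences from -0.11 to 0.05, and none was called (limma; over the 20 members not described by library, which include these 8, 2 had an unadjusted p under 0.05). Of all 19057 genes, 3262 had an unadjusted p under 0.05 (limma). Probes of 7 of the 9 measured cluster genes averaged under 7.01, the median signal, and folds of such dim probes can come out too small.

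The osteoblast list followed the same libraries as Mmp13 within the tooth germ group. Its mean over 5 genes was 10.81, 10.00 and 10.75 in titled tooth germ and 10.27, 10.98 and 10.04 in titled oral tissue. Ibsp, which encodes bone sialoprotein, read 12.70, 10.88 and 12.96 against 12.13, 13.35 and 11.62. In oral tissue library 2, where the osteoblast list was highest of all, Mmp13 was at 7.17 and thus as low as in the other oral libraries. None of the 5 osteoblast genes was called, and 1 had an unadjusted p under 0.05 (limma), beside 3262 of all 19057 genes. Without litter 2, where Mmp13 was called, 3 of the 5 were called, as was 1 without oral tissue library 2. The cartilage list of 8 genes lay between 7.78 and 7.90 in titled tooth germ and between 7.84 and 7.85 in titled oral tissue. Of these 8, Matn3, a cartilage matrix protein, was called higher (0.13, adjusted p = 0.0223, limma), at values of 6.95 to 7.00 against 6.83 to 6.87. That call was lost without oral tissue library 1 or 2, tooth germ library 1 or 3, or any litter. The part of bone and cartilage in the Mmp13 values was not tested.

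**Figure D2:**
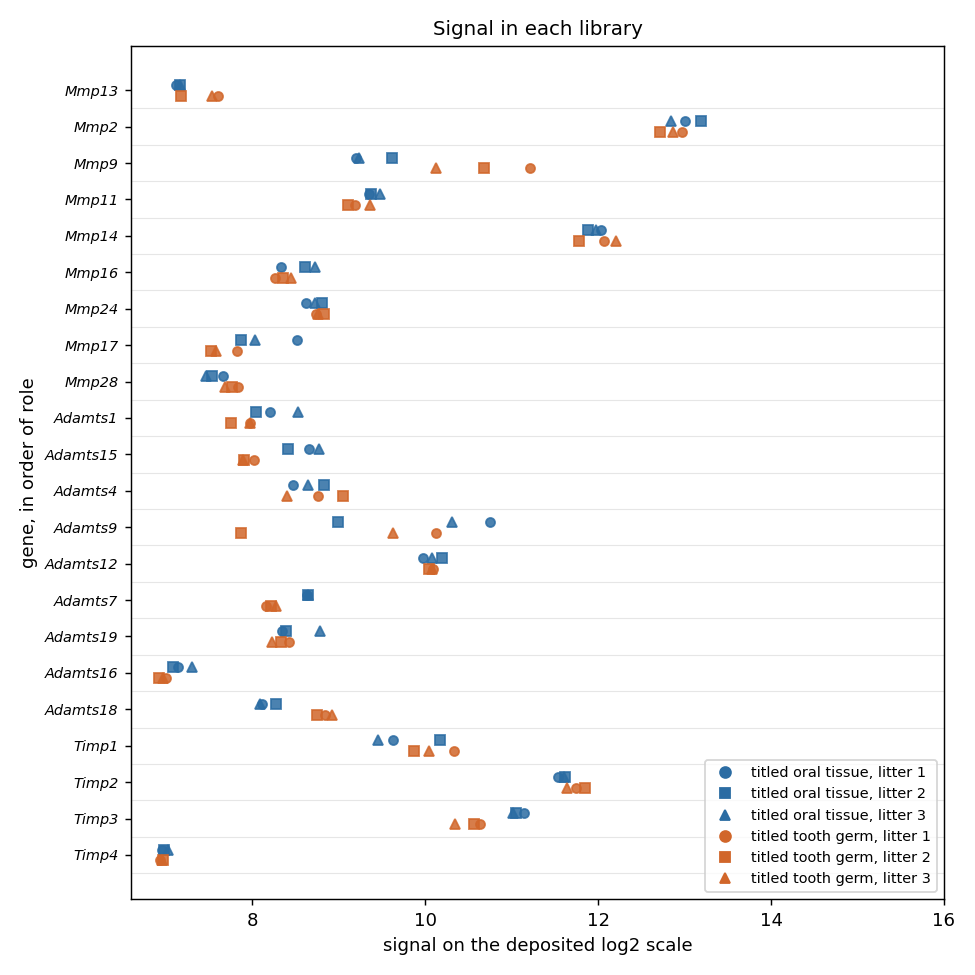
Signal of the 22 members described by library, in order of role, on the deposited log2 scale. Colour gives the titled tissue and the symbol the litter. The tissues are apart for Mmp9, Adamts18, Adamts15, Adamts7 and Timp3, and by narrower gaps for Mmp13, Mmp17, Mmp28, Adamts1, Adamts16 and Timp2. Adamts9 is spread by litter.

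The gelatinases cut denatured collagen and the collagen IV of basement membranes. Mmp9 read 9.20, 9.62 and 9.23 in titled oral tissue, against 11.21, 10.68 and 10.13 in titled tooth germ. All tooth germ libraries lay above all oral libraries, although they spanned more than 1 unit among themselves. The means were 10.67 ± 0.541 against 9.35 ± 0.233 (SD, n = 3), so that the log2 difference was 1.32 (SE 0.214, adjusted p = 0.00271, limma) or 2.5-fold. The same-litter pairs differed by 2.01, 1.06 and 0.90. Robust variance shrinkage ended this call (limma, adjusted p = 0.112) and the other 18 alternatives kept it. Mmp2, the other gelatinase, read 13.00, 13.19 and 12.84 against 12.97, 12.72 and 12.87. Its groups overlapped, and the difference of -0.16 (95% interval -0.36 to 0.05, adjusted p = 0.438, limma) was not called.

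Mmp9 is also made by neutrophils, macrophages and osteoclasts, so the lists for these cells are given beside it. Of 10 macrophage and leukocyte genes 0 rose and 6 fell, and the list mean was 7.81 to 7.90 in titled tooth germ against 8.04 to 8.24 in titled oral tissue. None of 6 neutrophil genes was called (limma; 2 at an unadjusted p under 0.05, and 1 lower when litter was blocked), with means of 7.05 to 7.21 against 7.15 to 7.36. Over all 19057 genes, 3262 had an unadjusted p under 0.05 (limma). None of 7 osteoclast genes was called either (limma; 1 at an unadjusted p under 0.05), with means of 7.45 to 7.48 against 7.39 to 7.52. Of these 7, 4 had a positive difference. Acp5, the tartrate-resistant phosphatase of osteoclasts, read 7.20, 7.04 and 7.13 in titled tooth germ against 7.01, 7.05 and 7.04 (0.092, adjusted p = 0.326, limma). Dcstamp, a fusion receptor of osteoclasts, read 7.09, 7.06 and 7.06 against 6.99, 7.04 and 6.98 without overlap (0.0676, adjusted p = 0.372). Calcr went the other way, also without overlap, at 6.84, 6.87 and 6.87 against 6.92, 6.93 and 6.91. Its difference of -0.0614 (limma, unadjusted p = 0.0437, adjusted p = 0.27) was the 1 of the list under 0.05 before adjustment. Ctsk, cathepsin K, read 9.91, 10.51 and 10.27 against 9.94, 10.71 and 10.54. Of 9 surface epithelium genes 6 rose and 1 fell, with list means of 10.52 to 10.64 against 9.89 to 10.06. Beside the counts of these lists, 2.39% of all genes were called higher and 3.42% lower, or 3.86% and 5.02% when litter was blocked. The calls of the macrophage list numbered 2 or 3, in place of 6, without oral tissue library 1 or 3, any tooth germ library, litter 1 or litter 3. Those of the epithelial list numbered 3 or 4, in place of 7, without oral tissue library 1, tooth germ library 2 or 3, litter 1 or litter 2. The part of any of these 4 cell groups in the Mmp9 difference was not tested.

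Among the stromelysins, Mmp11, which is activated inside the cell by furin, read 9.35, 9.37 and 9.48 in titled oral tissue, against 9.19, 9.11 and 9.36 in titled tooth germ. The groups overlapped by a narrow margin, and the difference of -0.18 was not called (SE 0.0875, adjusted p = 0.322, limma).

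The membrane-type enzymes act at the cell surface, and Mmp14 activates the precursor of Mmp2. Mmp14 read 12.03, 11.88 and 11.98 against 12.07, 11.78 and 12.21 in titled tooth germ, with overlapping groups and a difference of 0.0507 (95% interval -0.18 to 0.28). Mmp24 read 8.62, 8.81 and 8.73 against 8.74, 8.83 and 8.76 (0.0567). Its dimmer probes differed by -0.24, -0.0794 and 0.00444 and were not called. Mmp16 read 8.33, 8.61 and 8.73 against 8.26, 8.36 and 8.45, lower in each of the 3 pairs but overlapping between the groups (-0.20, adjusted p = 0.349, limma). A dimmer Mmp16 probe gave the like difference of -0.21, and the dimmest gave 0.0121. Mmp14, Mmp24 and Mmp16 were not called. The lipid-anchored Mmp17 read 8.52, 7.87 and 8.03 in titled oral tissue, against 7.82, 7.52 and 7.58 in titled tooth germ, so that every oral library was above every tooth germ library. The difference of -0.50 (SE 0.142, adjusted p = 0.0699, limma) was called with litter as a block (adjusted p = 0.00108), as a random block (adjusted p = 0.0308) and without oral tissue library 2 (-0.63, adjusted p = 0.02). Without oral tissue library 1, the highest, it was -0.31 (adjusted p = 0.136, limma).

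Mmp28, or epilysin, an enzyme of epithelia, read 7.66, 7.53 and 7.46 in titled oral tissue, against 7.84, 7.77 and 7.68 in titled tooth germ. The groups did not overlap, and the pairs differed by 0.18, 0.24 and 0.21. The difference of 0.21 (SE 0.0723, adjusted p = 0.137, limma) was called with litter as a fixed block (adjusted p = 0.044). It was not called with litter as a random block (adjusted p = 0.0776, limma) or in the other alternatives. The 3 dimmer Mmp28 probes differed by 0.0236 to 0.0382.

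The Adamts proteoglycanases cut versican and aggrecan. Of 6 measured, 1 fell and 5 were not called, and 3 fell with litter as a block, where 3.42% and 5.02% of all genes were called lower. Adamts15 read 8.66, 8.41 and 8.77 in titled oral tissue, against 8.02, 7.91 and 7.89 in titled tooth germ. The groups were apart, at 8.61 ± 0.185 against 7.94 ± 0.069 (SD, n = 3), and the level was 1.6-fold higher in titled oral tissue (log2 difference -0.67, SE 0.0941, adjusted p = 0.00102, limma). This call was kept in all 19 alternatives. Adamts8, the next coding gene to Adamts15 on chromosome 9, had a mean of 7.06 and a difference of -0.0482, and was not called. Adamts1 read 8.20, 8.04 and 8.53 against 7.98, 7.76 and 7.98 in titled tooth germ, lower in all 3 pairs and with no overlap. Its difference of -0.35 (SE 0.115, adjusted p = 0.114, limma) was called with litter as a block (adjusted p = 0.0119) and without oral tissue library 2 (-0.46, adjusted p = 0.0377). It was not called with litter as a random block (adjusted p = 0.061, limma), and without oral tissue library 3, the highest, it was -0.22 (adjusted p = 0.305). The dimmer Adamts1 probes differed by -0.17 and -0.0456 and were not called. Adamts4 read 8.47, 8.83 and 8.65 against 8.76, 9.05 and 8.40. Its pairs disagreed in sign, and it was not called.

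Adamts9, a proteoglycanase of the secretory pathway and pericellular matrix, varied more between litters than between tissues. It read 10.75, 8.99 and 10.31 in titled oral tissue, against 10.13, 7.87 and 9.63 in titled tooth germ. Both libraries of litter 2 were below all others, by at least 1.32 within each tissue. The tooth germ library was the lower one in each pair, by 0.61, 1.12 and 0.67 on the log2 scale for litters 1 to 3. Across litters the difference of -0.80 had an SE of 0.518 (adjusted p = 0.492, limma), while with litter as a fixed block its SE was 0.0956 (adjusted p = 1.9e-04). That smaller SE was moderated across genes in a fit with 2 residual degrees of freedom, so it does not measure the spread of these pairs alone. With litter as a random block the difference was not called (adjusted p = 0.352, limma). Unpaired differences moved with single libraries, from -1.31 without oral tissue library 2 and -1.26 without tooth germ library 1 to -0.43 without oral tissue library 1 and -0.13 without tooth germ library 2. Its SD within tissues, 1.06, was the 2nd largest of all 19057 genes. Looked at after these values were seen, Adamts9 was the 1 gene of 19057 with both libraries of litter 2 at least 1 unit below both other libraries of the same tissue. The same count was 0 for litter 1 and 2 for litter 3, and for genes that stood above by 1 unit it was 0, 2 and 1. A dimmer Adamts9 probe read 7.55, 7.70 and 7.63 against 7.40, 7.37 and 7.47 and did not show the litter spread. It differed between the tissues by -0.21 (adjusted p = 0.0657 over all probes, limma). The large litter spread thus belongs to 1 of 2 probes, while both were lower in titled tooth germ.

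**Figure D3:**
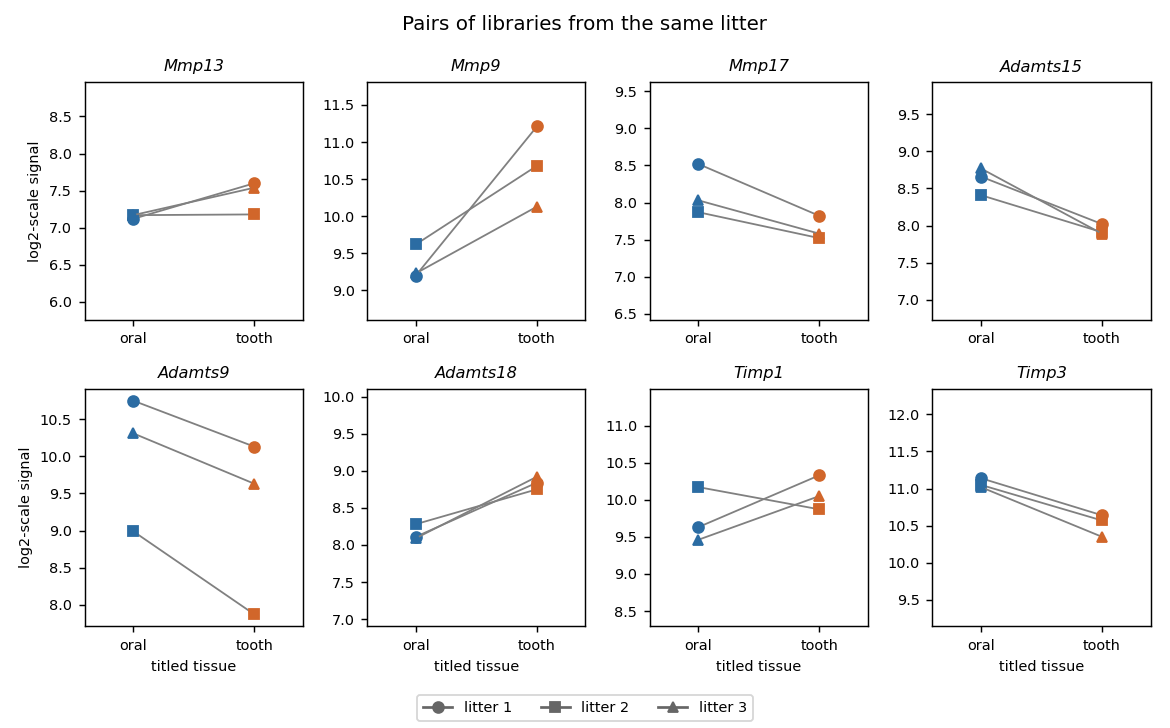
Signal of 8 members in the titled oral and tooth germ libraries, joined by litter, each panel spanning the same range of log2 units. Lines for Adamts9 run down side by side at different heights, whereas those of Timp1 cross, with litter 2 falling and the others rising.

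Adamts18, an orphan enzyme of the family known from branching epithelial organs, was the Adamts gene that rose. It read 8.11, 8.28 and 8.09 in titled oral tissue, against 8.84, 8.75 and 8.92 in titled tooth germ. The groups were well apart, and the difference of 0.68 (SE 0.0812, adjusted p = 3.7e-04, limma), or 1.6-fold, was called in all 19 alternatives. A second probe read 7.88, 7.89 and 7.82 against 8.29, 8.53 and 8.54 (0.59, adjusted p = 6.8e-04 over all probes, limma). The other 3 probes of the gene differed by 0.11 to 0.34 in the same direction and were not called.

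Adamts16, the closest relative of Adamts18, was lower at a probe with a mean of 7.07, just above the median signal. It read 7.14, 7.08 and 7.30 in titled oral tissue, against 7.00, 6.92 and 6.97 in titled tooth germ, a difference of -0.21 (SE 0.0537, adjusted p = 0.0417, limma). This call was lost in 10 of 19 alternatives, among them leaving out any library but oral tissue library 2 (adjusted p from 0.0664 to 0.157). The other Adamts16 probes differed by -0.0357 and -0.0164. Opposite directions of these 2 relatives therefore rest on 1 probe with a small difference.

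Adamts7 and Adamts12 cut COMP, a matrix protein of cartilage and tendon. Adamts7 read 8.63, 8.65 and 8.65 in titled oral tissue, against 8.16, 8.22 and 8.28 in titled tooth germ. The oral libraries were almost level, at 8.64 ± 0.00919 against 8.22 ± 0.0612 (SD, n = 3), and the difference was -0.42 (SE 0.07, adjusted p = 0.00322, limma). The call was lost without both libraries of litter 1 (-0.40, adjusted p = 0.0674). Adamts12 read 9.97, 10.20 and 10.08 against 10.09, 10.05 and 10.08, a difference of -0.00817 (95% interval -0.19 to 0.17). Adamts19 read 8.35, 8.39 and 8.78 against 8.42, 8.33 and 8.23. Oral tissue library 3 alone was high, and the gene was not called (-0.18, adjusted p = 0.465, limma).

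Of the 4 inhibitors, Timp3 was the 1 called. Timp3, which binds to the matrix, read 11.14, 11.05 and 11.02 in titled oral tissue, against 10.64, 10.57 and 10.35 in titled tooth germ. All oral libraries were higher, with means of 11.07 ± 0.064 against 10.52 ± 0.149 (SD, n = 3). The level was 1.46-fold higher in titled oral tissue (log2 difference -0.55, SE 0.0901, adjusted p = 0.00297, limma), a call kept in all 19 alternatives. A dimmer Timp3 probe differed by -0.21 and the dimmest by 0.0193, and neither was called.

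Timp2, which inhibits Mmp2 and also takes part in its activation by Mmp14, read 11.54, 11.62 and 11.61 against 11.75, 11.85 and 11.64. The tooth germ libraries were higher without overlap, but the difference of 0.15 was not called (SE 0.0775, adjusted p = 0.355, limma). Timp4 stayed near the median of all values, at 6.96, 6.98 and 7.03 against 6.93, 6.97 and 6.96.

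Timp1, an inducible inhibitor, read 9.63, 10.17 and 9.46 in titled oral tissue, against 10.33, 9.87 and 10.05 in titled tooth germ. The groups overlapped through litter 2, in which the tooth germ library was lower by 0.30, while it was higher by 0.70 and 0.60 in litters 1 and 3. A second probe gave 9.55, 10.06 and 9.44 against 10.25, 9.74 and 10.01. The difference of 0.34 (SE 0.166, adjusted p = 0.342, limma) was called without both libraries of litter 2 (0.65, adjusted p = 0.0126) and without oral tissue library 2 (0.54, adjusted p = 0.0362). It was 0.19 without oral tissue library 3, 0.21 without tooth germ library 1, 0.15 without litter 1 and 0.20 without litter 3, and was not called there (limma). Timp1 was highest in the oral library and lowest in the tooth germ library where the osteoblast list given above was highest and lowest, and Alpl, the alkaline phosphatase of bone, read 9.36, 10.24 and 9.17 against 10.35, 9.88 and 10.29. The part of bone tissue in the Timp1 values was not tested.

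The remaining 20 members read between 6.74 and 7.84 and none was called, with differences from -0.19 to 0.05. They were the 8 cluster genes other than Mmp13, among them Mmp12, the macrophage elastase, and Mmp20, the enamel protease of later ameloblasts, together with Mmp19, Mmp21, Mmp23 and the leukocyte enzyme Mmp25. The Adamts genes among them were the procollagen proteases Adamts3 and Adamts14, the von Willebrand factor protease Adamts13, and Adamts6, Adamts8, Adamts10, Adamts17 and Adamts20. Of these 20, 12 averaged under the median signal. Over all 42 members, 6 were higher in titled tooth germ without overlap and 7 lower, which is 14.3% and 16.7% beside 11.9% and 11.2% of all genes.

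Regulators outside the 3 families were examined with a list of 27 genes, of which 23 were measured. The calls were 4 higher and 2 lower, against 4 higher and 6 lower when litter was blocked, and the median difference was -0.0775. Of all genes, 2.39% were called higher and 3.42% lower, or 3.86% and 5.02% when litter was blocked. Spock1, a secreted proteoglycan that modulates Mmp activation, read 7.27, 7.19 and 7.13 against 7.95, 7.80 and 7.64 (0.60, adjusted p = 6.0e-04, limma). Its relatives went both ways, with Spock2 higher by 0.34 and Spock3 at -0.50. Furin, the convertase that removes the inhibitory domain of Mmp14, Mmp11 and many Adamts precursors, read 11.06, 11.14 and 11.14 against 11.33, 11.59 and 11.40 (0.32, adjusted p = 0.0455, limma). Papln, a protein related to the Adamts family that lacks the protease domain, rose by 0.29. Reck, a membrane-anchored inhibitor of Mmp2, Mmp9 and Mmp14, read 9.58, 9.57 and 9.58 in titled oral tissue, against 9.35, 9.26 and 9.23 in titled tooth germ (-0.30, adjusted p = 0.0369, limma). The calls of this list depended on the libraries. They numbered 1 in place of 6 without tooth germ library 2 or litter 2, 2 without litter 1 and 3 without tooth germ library 3.

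Among 19 related metalloproteases the calls were 1 higher and 1 lower, against 2 higher and 4 lower when litter was blocked, and the median difference was -0.0365. The shares of all genes were 2.39% higher and 3.42% lower, or 3.86% and 5.02% when litter was blocked. Mme, or neprilysin, a membrane peptidase, stood at 10.17, 10.11 and 10.11 in titled tooth germ against 9.11, 9.36 and 9.12 (0.93, adjusted p = 6.3e-05, limma). Adam33 fell by 0.27 (adjusted p = 0.0303, limma). The list had 1 call without tooth germ library 1 or 2, litter 1 or litter 3.

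Among 24 measured substrates of these enzymes 5 were called lower and 0 higher, or 8 and 0 when litter was blocked, and 9 had an unadjusted p under 0.05 (limma). Beside these counts, 3.42% of all genes were called lower and 2.39% higher, or 5.02% and 3.86% when litter was blocked. An unadjusted p under 0.05 was found for 3262 of all 19057 genes (limma). The median difference of the substrates was -0.11. Eln, which encodes elastin, read 11.53, 11.58 and 11.14 in titled oral tissue, against 10.61, 10.77 and 10.36 in titled tooth germ (-0.84, SE 0.129, adjusted p = 0.00192, limma). Vwf, the substrate of Adamts13 and an endothelial product, fell by 0.63, Fn1, fibronectin, by 0.51, Dcn, the proteoglycan decorin, by 0.50 and Col5a1 by 0.43. The calls numbered 3 without oral tissue library 1, tooth germ library 2 or 3, litter 2 or litter 3.

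Marker lists of several other tissues lay higher in titled oral tissue. Beside the counts given for them, 3.42% of all genes were called lower, or 5.02% with litter as a block. The skeletal muscle list lay at 9.52 to 9.76 in titled tooth germ and 11.10 to 11.81 in titled oral tissue. The tendon and connective tissue list, of which 5 of 8 genes fell (6 with litter as a block), lay at 9.26 to 9.36 against 9.83 to 9.97, and the endothelial list, of which 1 of 8 fell (2 with litter as a block, and 0 without any library but oral tissue library 1 or without any litter), at 8.61 to 8.66 against 8.72 to 8.91. Neuron genes lay at 7.48 to 7.65 against 8.12 to 8.79, with 3 of 6 lower (4 with litter as a block), and Schwann cell and glial genes at 7.25 to 7.32 against 7.55 to 7.86, with 1 of 3 lower. The glial gene called was Sox10 (-1.19), while Erbb3 (-0.0522) and Foxd3 (0.0039) were flat, with means of 6.90 and 6.93, under the median signal. The part of these tissues in the differences of Timp3, Adamts15, Adamts7, Mmp17 and Adamts1 was not tested.

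**Figure D4:**
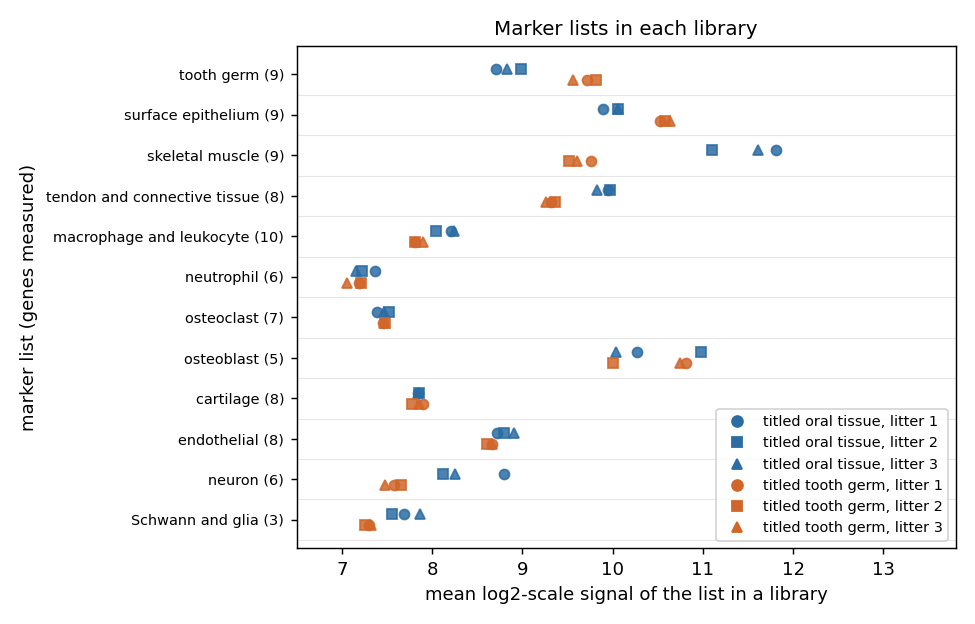
Mean log2-scale signal of 12 marker lists in each library, with the number of measured genes in brackets. Muscle genes are apart by tissue, while the osteoblast list runs from 10.00 to 10.98 without following the titled tissue.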

How the data were processed

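The authors deposited 1 table of log2-scale signals for 45281 probes and 6 arrays. The tool was lumi 2.8.0, per the submitters' processing notes. Background correction and transformation are not given in the sources used here, so it is open whether the scale is plain log2, and differences of dim genes can come out too small. After sorting, the columns differed by at most 8.3e-04, as they do after quantile normalization, and nothing was rescaled. Probes with 1 symbol in the platform annotation were used (34885), with the probe of the highest mean kept for each of 19057 genes. Of the 42 members, 21 had several probes. The members and lists were chosen with earlier results of these data known.

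The titled groups (n = 3 arrays each, whose number limits the precision) were compared by limma 3.58.1 under R 4.3.3 (lmFit, eBayes with a mean-variance trend, 4 residual degrees of freedom) and Benjamini-Hochberg adjustment over all genes. Errors of differences are moderated standard errors. Litters pair the libraries per the labels, and deviations from the tissue means correlated at 0.413, 0.233 and 0.266 within litters and from -0.267 to -0.0724 between litters. Because deviations from a tissue mean cancel out over its libraries, positive values within litters bring negative ones between litters. The fit that blocks on litter has 2 residual degrees of freedom, and its values appear where a call or a count changes. A random litter block used duplicateCorrelation. Per-library values are given for members called in either fit, Mmp9, Mmp13, Adamts9, the Timp genes and members whose mean exceeded the upper quartile of all values. Genes named from the other lists are called members, at most 6 in each direction, and genes named beside a result as markers were chosen after their values were seen. Other normalizations, filters, probe rules, variance settings and left-out libraries were tried. The fit was checked on simulated data without a litter effect, so the block on litter was not checked under such an effect.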

Additional observations from a re-analysis of the deposited data

How the results depend on the processing

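Across 19 alternatives Adamts15, Adamts18 and Timp3 kept their calls. Mmp9 lost its call with robust shrinkage (1.32, adjusted p = 0.112). Adamts7 lost it without litter 1, with leave-out differences from -0.45 to -0.39. Adamts16 lost it with the mean of all its probes (-0.0874) and without a variance trend (-0.21), and its leave-out differences ran from -0.26 to -0.15. With litter as a replicate block 1693 genes were called, with 11 members (4 higher, 7 lower) and 24 genes of the pathway lists in place of 13. With litter as a random block 1430 genes and 7 members (2 higher, 5 lower) were called. Robust shrinkage left 1 member higher. When libraries or litters were left out, called genes numbered 549 to 1025, members 4 to 9 (2 to 4 higher, 2 to 6 lower), and pathway list genes 5 to 12. The count of all genes was 734 without tooth germ library 2, 549 without litter 1 and 668 without litter 3. Pathway list genes numbered 5 without tooth germ library 2, 8 without tooth germ library 3, litter 1 or litter 3, and 6 without litter 2. Members higher rose to 4 without litter 2, and members lower fell to 2 without litter 1. Uncalled values turned sign with the mean of all probes for Adamts12 (0.0068) and Mmp24 (-0.0645), and with libraries left out for Adamts12 (-0.0736 to 0.0619), Adamts19 (-0.30 to 0.00685), Adamts4 (-0.0666 to 0.26) and Mmp14 (-0.0459 to 0.17). The causes of these changes were not tested. Background correction of scanner intensities and slide as a block were not run, because neither was part of the values used. Dim probes limit what can be seen, since 13 members had means below the median of all values.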
